A study of Arabidopsis thaliana with 6 samples.

Results

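The WRKY family is one of the large families of plant transcription factors, and 60 of its Arabidopsis genes were followed here among the 28775 genes of the count table. They were chosen by a list of locus identifiers, with earlier results of these data known, and all 60 had counts in every library and passed the filter on low counts. The seedlings were the wild type *Arabidopsis thaliana* Col-0 and 2 transgenic lines in that background, each with 2 biological replicate libraries. MC-Line3 (35S:MC-JcERFVII2 line 3) expressed the wild-type form of the *Jatropha curcas* group VII ethylene response factor JcERFVII2, and MA-Line1 (35S:MA-JcERFVII2 line 1) expressed a form whose N-terminal cysteine was replaced by alanine. The cysteine is the start of a degradation signal that is used when oxygen is present, so the MA form lacks it. Both transgenes were driven by the constitutive 35S promoter, and each construct was represented by 1 homozygous line, so that construct and line cannot be told apart. All groups were whole seedlings grown on plates in air with 16 h of light and 8 h of dark, collected at the end of the light, 10 d old by the sample labels, although the text of the study gives a younger age. The transcript of the transgene was not analysed here.

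WRKY proteins bind the W-box, a short DNA element, through a domain of a conserved signature heptad followed by a zinc finger. In Arabidopsis they are best known from immunity, where mitogen-activated protein kinases (MAPKs) phosphorylate some of them, and they also act in leaf senescence, phosphate starvation, abscisic acid responses and development. Many of their genes carry W-boxes themselves, so the family is known to regulate its own members, and several respond within minutes to wounding, touch or pathogens. Group I members have a pair of domains, group II members (subgroups IIa to IIe) have 1 domain with a C2H2 zinc finger, and group III members have 1 domain with a C2HC finger.

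The codons of the signature heptad were read from the TAIR10.1 genome for all 60 members, and those of 5 members with large changes, together with the variant ones, are shown to make the difference in the heptad visible. Capitals mark the 7 codons of the heptad within 45 bases of coding sequence that lay in 1 exon each, and all runs are in the 5′ to 3′ direction of the gene.
*WRKY33*, first signature, chr2:16109346-16109390, plus strand: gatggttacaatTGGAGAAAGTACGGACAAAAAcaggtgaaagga
*WRKY33*, second signature, chr2:16109970-16110014, plus strand: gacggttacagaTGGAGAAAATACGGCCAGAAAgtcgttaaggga
*WRKY40*, chr1:30384777-30384821, plus strand: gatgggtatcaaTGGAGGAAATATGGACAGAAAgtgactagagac
*WRKY75*, chr5:4150774-4150818, minus strand: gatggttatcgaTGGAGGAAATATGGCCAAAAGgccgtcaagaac
*WRKY46*, chr2:19044301-19044345, minus strand: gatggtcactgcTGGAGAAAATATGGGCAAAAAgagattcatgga
*WRKY70*, chr3:20909748-20909792, minus strand: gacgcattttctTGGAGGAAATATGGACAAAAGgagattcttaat
*WRKY50*, chr5:9147567-9147611, minus strand: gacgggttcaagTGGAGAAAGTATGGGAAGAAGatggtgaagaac
*WRKY51*, chr5:25908852-25908896, plus strand: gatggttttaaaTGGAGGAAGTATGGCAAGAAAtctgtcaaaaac
*WRKY59*, chr2:9335750-9335794, minus strand: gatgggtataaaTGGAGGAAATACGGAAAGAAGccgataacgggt
Of the 12 group I members, 11 had a pair of heptads, as in *WRKY33*, and *WRKY19*, which joins a WRKY domain to an immune receptor, had 1. All 9 group III members had the C2HC finger. The sixth codon of the heptad encoded glutamine (CAA or CAG) in most members and lysine (AAG) in 3, the subgroup IIc members *WRKY50*, *WRKY51* and *WRKY59*. One of these variant genes, *WRKY51*, had the largest rise among the 60 members in MA-Line1, whereas the other two were not called in any comparison.

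The proximal promoters of 4 members, *WRKY33* and *WRKY40* with the largest falls in CPM in MC-Line3 and *WRKY51* and *WRKY75* with the largest fold rises in MA-Line1, were read as the 250 bases before the annotated gene start, and are shown because WRKY proteins and ethylene response factors bind short elements there. Capitals mark W-boxes (TTGACC or TTGACT, on either strand).
*WRKY33*, chr2:16107985-16108234, plus strand: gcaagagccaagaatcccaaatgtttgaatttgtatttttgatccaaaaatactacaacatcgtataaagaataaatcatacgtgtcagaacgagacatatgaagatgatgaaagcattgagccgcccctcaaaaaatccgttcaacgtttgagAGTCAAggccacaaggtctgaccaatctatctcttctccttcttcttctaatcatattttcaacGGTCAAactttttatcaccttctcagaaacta
*WRKY75*, chr5:4151202-4151451, minus strand: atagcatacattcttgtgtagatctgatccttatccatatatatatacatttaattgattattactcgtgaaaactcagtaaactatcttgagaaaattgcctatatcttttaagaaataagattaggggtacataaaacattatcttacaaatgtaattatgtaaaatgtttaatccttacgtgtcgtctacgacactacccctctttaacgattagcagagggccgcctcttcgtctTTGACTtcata
*WRKY40*, chr1:30383311-30383560, plus strand: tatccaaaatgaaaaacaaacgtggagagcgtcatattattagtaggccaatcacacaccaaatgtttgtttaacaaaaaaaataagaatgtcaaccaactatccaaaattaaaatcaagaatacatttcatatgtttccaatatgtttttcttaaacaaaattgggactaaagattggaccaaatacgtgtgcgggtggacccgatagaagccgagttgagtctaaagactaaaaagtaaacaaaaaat
*WRKY51*, chr5:25907997-25908246, plus strand: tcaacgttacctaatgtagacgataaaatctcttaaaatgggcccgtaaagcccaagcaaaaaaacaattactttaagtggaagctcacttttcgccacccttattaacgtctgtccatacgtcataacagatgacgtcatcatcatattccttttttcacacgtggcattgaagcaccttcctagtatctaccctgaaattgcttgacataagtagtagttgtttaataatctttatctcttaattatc
The promoter of *WRKY33* held a W-box 96 bases and another 32 bases before the gene start, that of *WRKY75* held 1 at 11 bases, and those of *WRKY40* and *WRKY51* held none in this window. At least 1 W-box was found in 22 of the 60 members (36.7%) and in 28.5% of 26710 protein-coding genes, and at least 2 in 10 members (16.7%) against 6.2% of all genes. In 1000 bases the shares were 81.7% of members and 67.4% of all genes. The members that were higher in MA-Line1 than MC-Line3 had a W-box within 250 bases in 8 of 21 cases (38.1%), and those not called in that comparison in 14 of 38 (36.8%). The GCC-box, the element bound by many ethylene response factors (GCCGCC on either strand, not overlapping a W-box here), was found in *WRKY26*, *WRKY33* and *WRKY75*, which is 5% of the members, and in 1.9% of all promoters of that length. These matches describe letters in a window and not binding.

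The libraries held 53084008 to 65271057 counts. Levels are given as CPM, the count of a gene scaled to a common library size after edgeR's TMM normalization (factors of 0.920 to 1.06), and tests are edgeR's quasi-likelihood tests with Benjamini-Hochberg adjustment over the 21206 genes tested, where a call is an adjusted p below 0.05. Replicates of Col-0 differed most, with an SD of 0.278 on the log2 scale over the 60 members, against 0.208 in MC-Line3 and 0.191 in MA-Line1. In whole seedlings, fewer cells of a type and less RNA per cell cannot be told apart. The seedling identity was checked with markers, of which the 4 shoot markers (photosynthesis genes) and the 4 root markers were present in all libraries and 4 seed and pollen markers stayed at or below 0.059 CPM in sum.

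MC-Line3 had less WRKY mRNA than either of the other genotypes. The 60 members together reached 1352 and 1415 CPM in the Col-0 libraries, 959 and 961 in those of MC-Line3 and 1344 and 1325 in those of MA-Line1, so that only MC-Line3 lay apart from Col-0 by far more than its replicates differed. The mean sum fell by 423 CPM from Col-0 to MC-Line3, of which *WRKY33* made up 33.4% and *WRKY40* 25.1%, followed by *WRKY70* with 8.75% and *WRKY22* with 6.27%. In MC-Line3, 3 members were higher and 19 lower than in Col-0 (36.7% called, against 31.2% of all genes tested), with 5% of members higher against 14.5% of all genes and 31.7% lower against 16.7%. In MA-Line1, 14 were higher and 10 lower (40% called, against 37.1% of all genes), and their split of 23.3% higher and 16.7% lower lay near that of all genes, 18% and 19.1%. Between the lines, 21 members were higher and 1 lower in MA-Line1 than MC-Line3 (36.7% called, against 20% of all genes), that is 35% higher against 11.3% and 1.67% lower against 8.68%. A called log2 fold change of at least 1 in size was found for 6 members in MC-Line3 (10%, against 4.96% of all genes), 4 in MA-Line1 (6.67%, against 7.7%) and 14 between the lines (23.3%, against 5.52%). The median log2 fold change of the members was -0.31 in MC-Line3, 0.0015 in MA-Line1 and 0.20 between the lines, and that of all genes tested was 0.010, 0.010 and -0.0081. Both lines were compared with the same Col-0 libraries, so their values share those controls. The comparison between the lines uses the same MC-Line3 libraries as MC-Line3 against Col-0, so a low value there enters both.

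No call was kept in a setting that changed the estimate of the spread and the test together. The spread estimated there contains the differences between the genotypes that are tested. The setting therefore cannot tell absent differences from masked ones. When each gene's dispersion was estimated without the genotypes and edgeR's exact test took the place of the quasi-likelihood test, 0 genes of the whole table were called in any comparison (2436, 1751 and 1338 genes had an unadjusted p below 0.05 for MA-Line1, MC-Line3 and between the lines), and among the members 3 were higher and 2 lower, 0 higher and 7 lower, and 14 higher and 0 lower at that unadjusted level. Scaling by library size alone gave all genes a median of 0.18 (MA-Line1) and 0.14 (MC-Line3) and changed the split of members to 21 higher and 5 lower in MA-Line1 and 5 higher and 11 lower in MC-Line3, while it gave 22 higher and 1 lower between the lines.

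**Figure D1:**
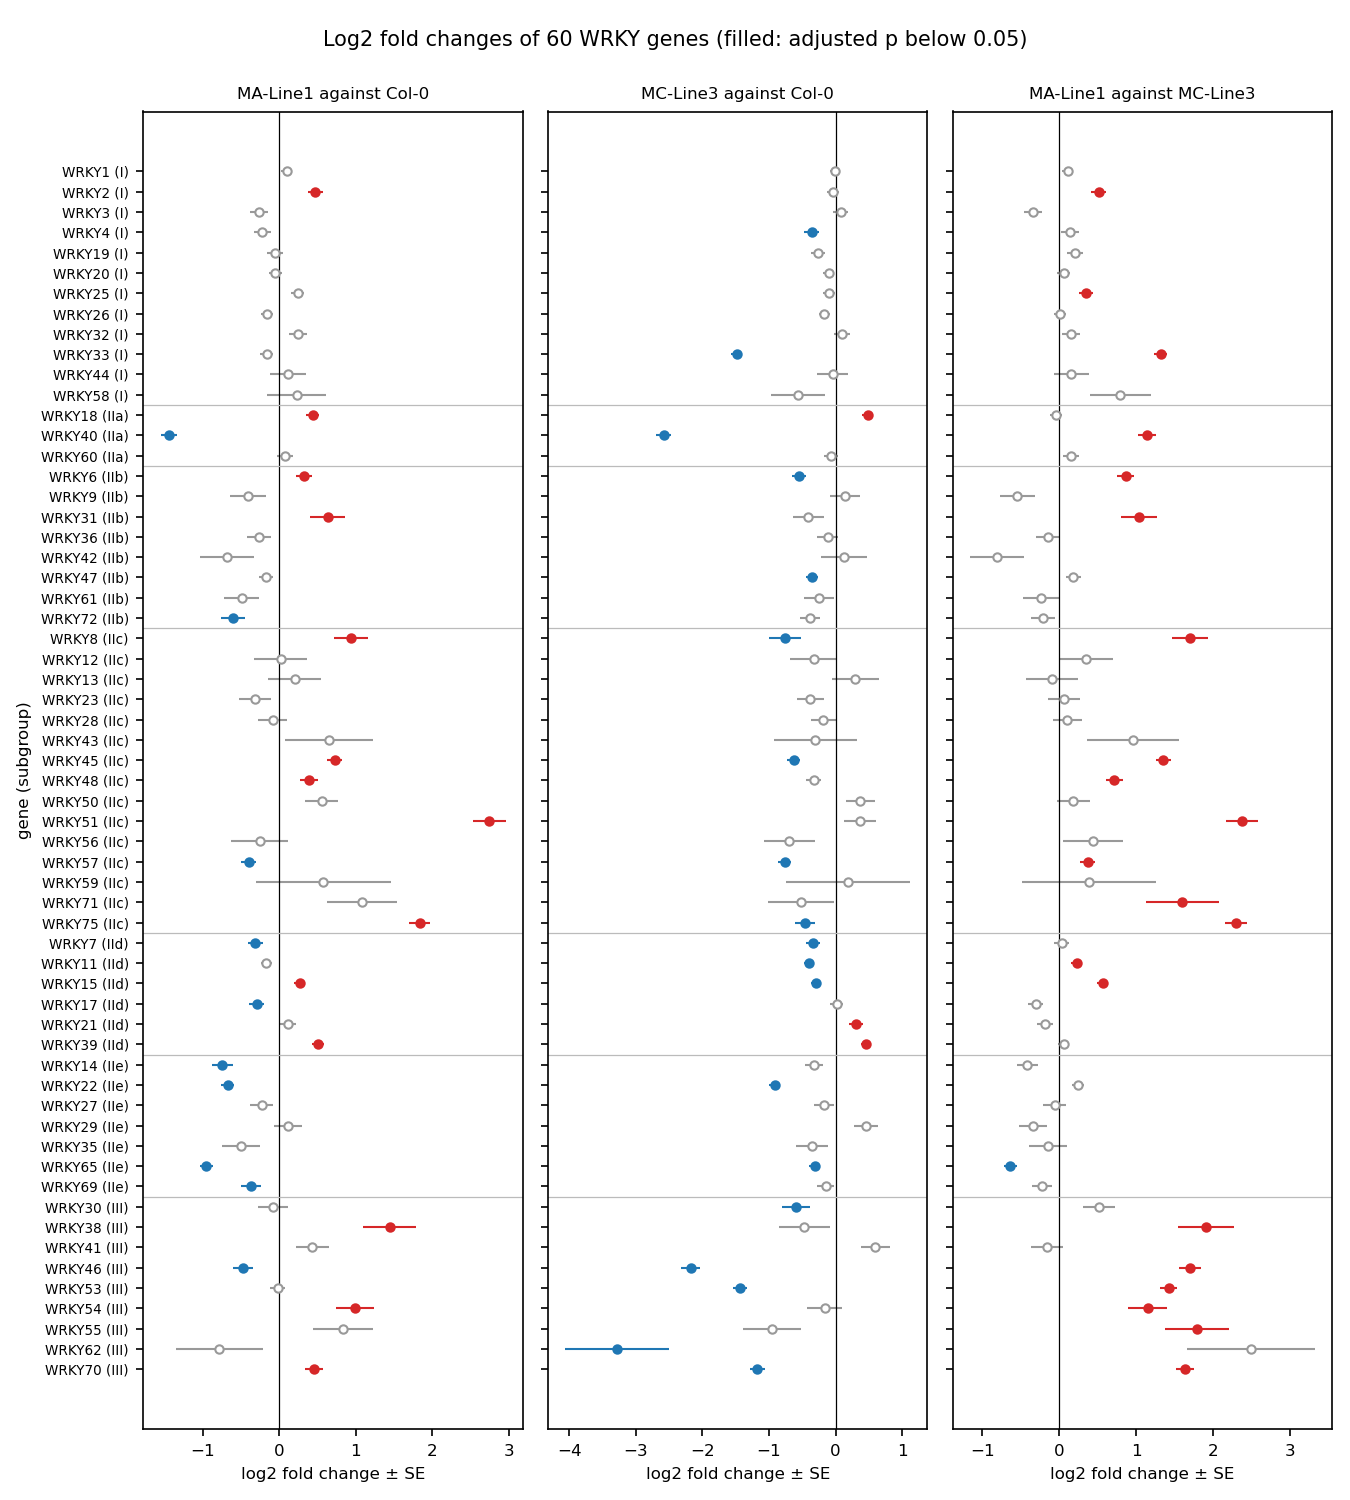
Log2 fold change with its standard error for each of the 60 WRKY genes, ordered by subgroup, in MA-Line1 against Col-0, MC-Line3 against Col-0 and MA-Line1 against MC-Line3. Filled points have an adjusted p below 0.05 (red higher, blue lower), and the third panel has 21 red points and 1 blue point.

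The largest parts of the summed fall in MC-Line3 came from *WRKY33* (33.4%) and *WRKY40* (25.1%), the most abundant members in Col-0. A sum of CPM gives abundant genes the most weight. The next members in level, *WRKY15* and *WRKY11*, made up 3.71% and 4.72%. Per length of exon, as CPM per kilobase (RPKM), *WRKY33* was the first-ranked member in Col-0 (mean 108) and MA-Line1 (96.8) and second in MC-Line3 (38.7), where *WRKY15* came first with 53.0. *WRKY40* went from 96.1 RPKM and second place in Col-0 to 16.1 and place 13 in MC-Line3, and to 35.5 and place 6 in MA-Line1. The order among *WRKY11* and *WRKY70* in Col-0 was not resolved, since both had a mean of 45.3 RPKM. *WRKY45* stood at place 8 in Col-0 (22.4), fell to place 16 in MC-Line3 (14.5) and took place 5 in MA-Line1 (37.0). At the other end, *WRKY13*, *WRKY43*, *WRKY56*, *WRKY58*, *WRKY59* and *WRKY62* had means below 1 CPM in every group, and none of these 6 was called except *WRKY62*.

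**Figure D2:**
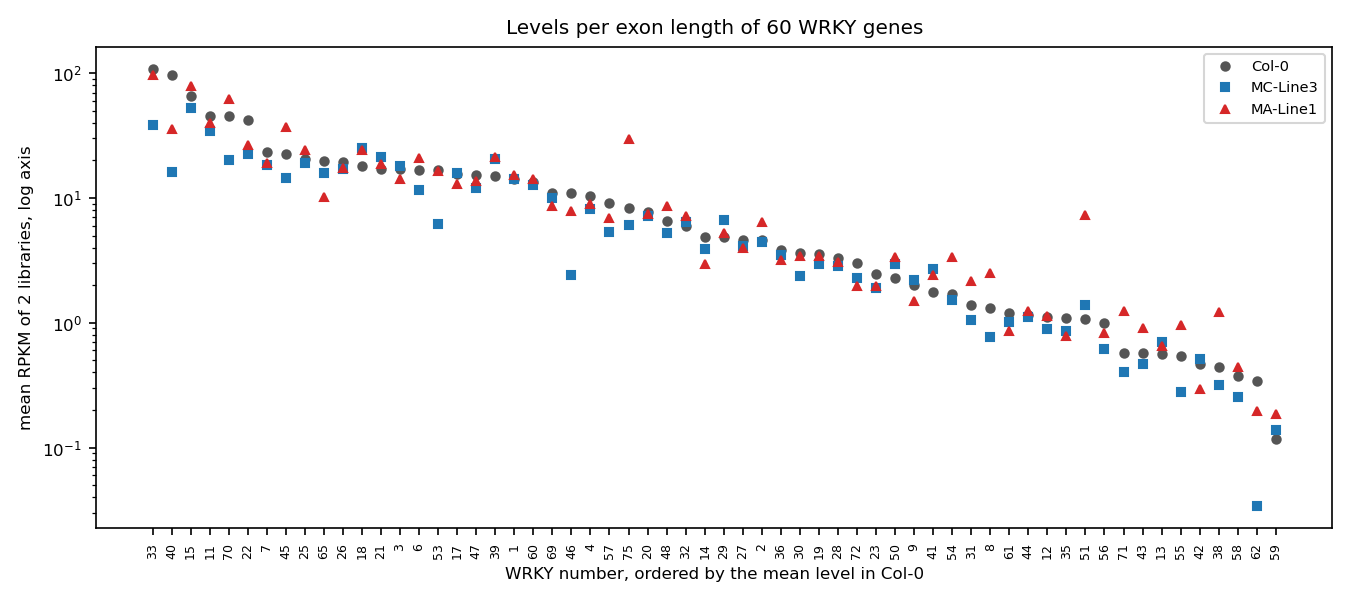
Mean level of each WRKY gene per kilobase of exon (RPKM, log axis) in Col-0, MC-Line3 and MA-Line1, with genes in the order of their Col-0 mean of 2 libraries. *WRKY33* leads in Col-0 at 108 RPKM, and the MC-Line3 symbols of *WRKY33*, *WRKY40*, *WRKY70*, *WRKY53* and *WRKY46* lie well under those of the other genotypes.

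Most members that respond rapidly to stress were lower in MC-Line3. Of the 11 members listed as rapidly stress-inducible, 8 were lower, 1 was higher and 2 were not called in MC-Line3 against Col-0 (16.7% of all genes were lower), with a median log2 fold change of -0.60. In MA-Line1, 3 were higher and 3 lower (18% and 19.1% of all genes) with a median of -0.08. Between the lines, 7 were higher and 0 lower in MA-Line1 than MC-Line3 (11.3% and 8.68% of all genes).

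*WRKY33* (AT2G38470, chromosome 2, positions 16108235 to 16110766), which activates camalexin synthesis and is needed for resistance to necrotrophic fungi, had 203 and 237 CPM in the Col-0 libraries, 76.1 and 80.9 in those of MC-Line3 and 196 and 196 in those of MA-Line1. Both MC-Line3 libraries were far under the other 4, and MA-Line1 lay just under the lower Col-0 library. Its level in MC-Line3 was 2.80-fold lower than in Col-0 (log2 fold change -1.49 ± 0.09 SE, adjusted p = 8.92e-07, edgeR), and its difference between MA-Line1 and Col-0 was not called (-0.16 ± 0.09, adjusted p = 0.154, edgeR).

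*WRKY40* (AT1G80840, chromosome 1, positions 30383561 to 30385499), a wound- and pathogen-induced repressor of defence and abscisic acid response genes, had 111 and 144 CPM in the Col-0 libraries, 20.7 and 21.9 in those of MC-Line3 and 46.4 and 47.8 in those of MA-Line1. The groups did not overlap, with MA-Line1 between the other two. It was 5.98-fold lower in MC-Line3 (log2 fold change -2.58 ± 0.12) and 2.71-fold lower in MA-Line1 (-1.44 ± 0.11) than in Col-0, and 2.21-fold higher in MA-Line1 than MC-Line3 (1.14 ± 0.11; adjusted p = 1.72e-07, 5.79e-06 and 4.8e-05, edgeR). Of its exonic 50-base words, 4.07% also occurred elsewhere in the genome. Its partner gene *WRKY18*, whose product pairs with WRKY40, moved the other way and was higher in both lines, from 34.1 and 38.7 CPM in Col-0 to 50.1 and 51.3 in MC-Line3 (log2 fold change 0.48 ± 0.08) and 50.6 and 47.9 in MA-Line1 (0.44 ± 0.08). The third member of subgroup IIa, *WRKY60*, was not called in any comparison.

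*WRKY46* (AT2G46400, chromosome 2, positions 19043411 to 19044955), a group III gene of pathogen and drought responses, had 13.1 and 16.4 CPM in the Col-0 libraries, 3.2 and 3.32 in those of MC-Line3 and 10.5 and 10.8 in those of MA-Line1. Each genotype formed a group of its own, MC-Line3 at the bottom and Col-0 at the top. The gene was 4.53-fold lower in MC-Line3 than in Col-0 (log2 fold change -2.18 ± 0.14, adjusted p = 1.94e-06, edgeR) and 3.26-fold higher in MA-Line1 than MC-Line3 (1.71 ± 0.14, adjusted p = 1.5e-05). Its smaller difference between MA-Line1 and Col-0 (-0.47 ± 0.13) was lost without either MA-Line1 replicate, without Col-0 replicate 2 and with library size alone.

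*WRKY53* (AT4G23810, chromosome 4, positions 12392370 to 12393982), a regulator of leaf senescence, repeated the pattern of *WRKY33*. It had 23.1 and 27.7 CPM in the Col-0 libraries, 9.03 and 9.68 in those of MC-Line3 and 25.5 and 24.7 in those of MA-Line1, so that MA-Line1 lay within the Col-0 range. The log2 fold change was -1.44 ± 0.11 in MC-Line3 (adjusted p = 5.14e-06, edgeR) and -0.02 ± 0.10 in MA-Line1 (adjusted p = 0.907), and 1.42 ± 0.11 between the lines. A gene on the other strand overlaps 22.5% of its exon bases, and reads of such partners cannot be told apart where strand is not marked.

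*WRKY22*, which acts downstream of the flagellin-activated MAPK cascade, was lower in both lines. It had 59.9 and 52.9 CPM in the Col-0 libraries, 29.8 and 30 in those of MC-Line3 and 36.3 and 34.6 in those of MA-Line1. All 4 transgenic libraries lay under both Col-0 libraries (log2 fold change -0.92 ± 0.08 and -0.67 ± 0.08, adjusted p = 1.98e-05 and 0.000113, edgeR), and the difference between the lines was not called (0.24 ± 0.08, adjusted p = 0.0594). With *WRKY33* and *WRKY12* it is linked to low oxygen responses in Arabidopsis. *WRKY12*, known as a repressor of secondary wall formation in pith, was near 1 CPM in all groups (0.856 and 1.42 in the Col-0 libraries, 0.851 and 0.972 in those of MC-Line3, 0.99 and 1.34 in those of MA-Line1) and was not called.

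**Figure D3:**
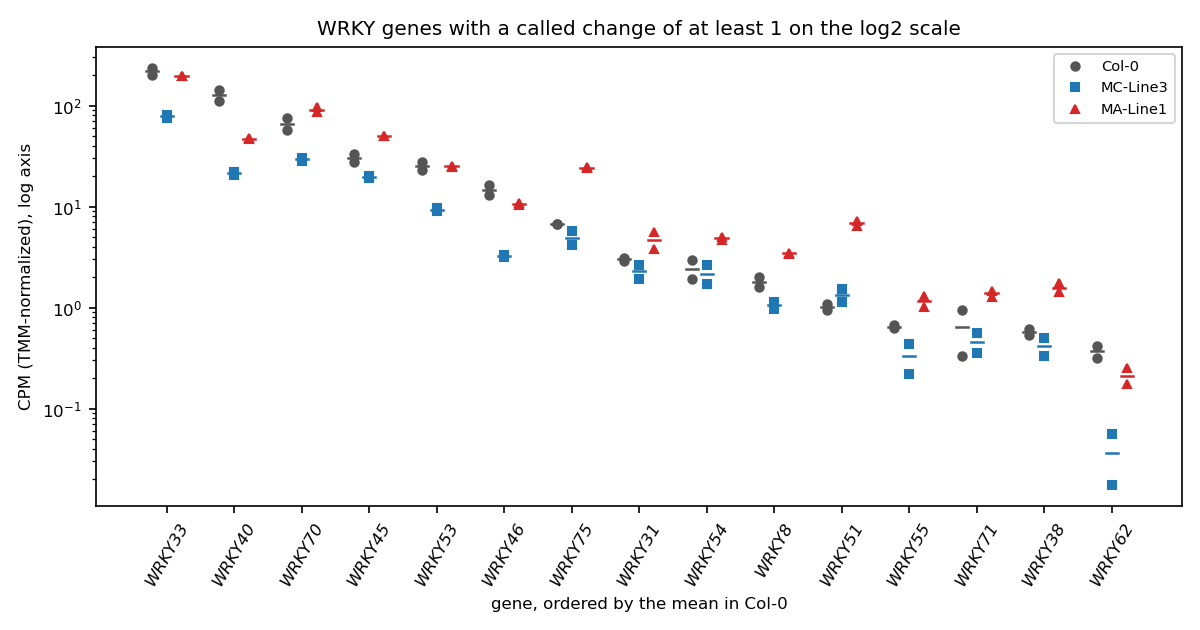
CPM (log axis) in each library of the 15 WRKY genes with a called log2 fold change of at least 1 in size in any comparison, with the mean of each group as a bar. Both MC-Line3 squares of *WRKY33*, *WRKY40*, *WRKY70*, *WRKY53* and *WRKY46* lie under every other library, and both MA-Line1 triangles of *WRKY75* and *WRKY51* lie over them.

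A set of 6 members had opposite directions in the lines, higher in MA-Line1 and lower in MC-Line3 than in Col-0: *WRKY6*, *WRKY8*, *WRKY15*, *WRKY45*, *WRKY70* and *WRKY75*. Opposite directions against the same Col-0 libraries fix the sign of the difference between the lines, which was called for all 6. How many of all genes had such opposite calls was not counted. Among these 6 members, the differences varied widely in size. The largest difference between the lines among the 6 belonged to *WRKY75* (AT5G13080, chromosome 5, positions 4149738 to 4151201), known from phosphate starvation and senescence. It had 6.79 and 6.77 CPM in the Col-0 libraries, 5.73 and 4.15 in those of MC-Line3 and 24.6 and 24 in those of MA-Line1. The MA-Line1 libraries stood far above the rest, whereas MC-Line3 replicate 1 was only slightly under Col-0. In MA-Line1 it was 3.58-fold higher than in Col-0 (log2 fold change 1.84 ± 0.14, adjusted p = 5.03e-06, edgeR) and 4.91-fold higher than in MC-Line3 (2.30 ± 0.14, adjusted p = 2.7e-06). The fall in MC-Line3 (-0.46 ± 0.15, adjusted p = 0.0347, edgeR) was lost in 5 of 14 settings, among them without MC-Line3 replicate 2 and without either MA-Line1 replicate.

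*WRKY70* (AT3G56400, chromosome 3, positions 20908711 to 20910623), a group III gene that sets the balance of salicylic acid and jasmonate responses, had 57.6 and 75.4 CPM in the Col-0 libraries, 30.3 and 28.6 in those of MC-Line3 and 96.8 and 86.1 in those of MA-Line1. The genotypes were ordered MC-Line3, Col-0 and MA-Line1 without overlap. The fall in MC-Line3 was 2.26-fold (log2 fold change -1.17 ± 0.12, adjusted p = 4.64e-05, edgeR) and the difference between the lines 3.10-fold (1.63 ± 0.12, adjusted p = 6.11e-06), while the rise in MA-Line1 over Col-0 (0.46 ± 0.11, adjusted p = 0.00951, edgeR) was lost without MA-Line1 replicate 1 (adjusted p = 0.0942).

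Among the phosphate-linked members, *WRKY45* activates the phosphate transporter gene *PHT1;1*, and *WRKY6* and *WRKY42* repress the phosphate exporter gene *PHO1*. *WRKY45* had 27.5 and 33.2 CPM in the Col-0 libraries, 20.1 and 19.2 in those of MC-Line3 and 50.2 and 50.2 in those of MA-Line1, again in 3 groups without overlap (log2 fold change 0.72 ± 0.09 in MA-Line1, -0.63 ± 0.10 in MC-Line3 and 1.35 ± 0.10 between the lines). *WRKY6* had 44.1 and 34.2 CPM in the Col-0 libraries, 26.9 and 26.7 in those of MC-Line3 and 48.6 and 49 in those of MA-Line1. Its fall in MC-Line3 (-0.55 ± 0.11) and the difference between the lines (0.87 ± 0.11) kept their calls in the 14 settings other than the dispersion estimated without genotypes, whereas the small rise in MA-Line1 (0.32 ± 0.10, adjusted p = 0.0345, edgeR) was lost in 6 of them, among them without Col-0 replicate 2, without either MA-Line1 replicate and without either MC-Line3 replicate. *WRKY42* was weakly counted at 1.36 and 0.905 CPM in the Col-0 libraries, 1.46 and 1.01 in those of MC-Line3 and 0.695 and 0.713 in those of MA-Line1, and was not called. Of the 4 phosphate-linked members, 3 were thus higher in MA-Line1 (18% of all genes) and 3 lower in MC-Line3 (16.7% of all genes).

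*WRKY8*, known from salt and virus responses, and *WRKY15*, from oxidative stress signalling, completed the set of opposite directions at very different levels. *WRKY8* had 2.01 and 1.62 CPM in the Col-0 libraries, 0.98 and 1.15 in those of MC-Line3 and 3.43 and 3.5 in those of MA-Line1 (log2 fold change 0.94 ± 0.22, -0.76 ± 0.24, and 1.70 ± 0.23 between the lines). *WRKY15* had 87.5 and 80.1 CPM in the Col-0 libraries, 66.2 and 70 in those of MC-Line3 and 101 and 101 in those of MA-Line1, and its differences were small (0.27 ± 0.07, -0.30 ± 0.07 and 0.57 ± 0.07). Neither gene's groups overlapped. The calls against Col-0 were less stable than those between the lines: for *WRKY8* the fall in MC-Line3 was lost in 7 of 14 settings, including the loss of any single library other than Col-0 replicate 2, and for both genes the rise in MA-Line1 was lost without either MA-Line1 replicate. The fall of *WRKY15* in MC-Line3 was lost without MC-Line3 replicate 1 and with library size alone.

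The members linked to salicylic acid were higher in MA-Line1 in 4 of 7 cases and lower in 1 (18% and 19.1% of all genes), and lower in MC-Line3 in 3 of 7 (16.7% of all genes). *WRKY51* (AT5G64810, chromosome 5, positions 25908247 to 25909881), which with *WRKY50* represses jasmonate signalling, had 0.949 and 1.1 CPM in the Col-0 libraries, 1.52 and 1.13 in those of MC-Line3 and 7.26 and 6.49 in those of MA-Line1. Col-0 and MC-Line3 lay close together and MA-Line1 stood far above them. Its rise of 6.69-fold over Col-0 (log2 fold change 2.74 ± 0.22, adjusted p = 7.02e-06, edgeR) was the largest among the 60 members in that comparison, and it was 5.19-fold higher than in MC-Line3 (2.38 ± 0.21, adjusted p = 2.32e-05). Its partner *WRKY50* was not called. *WRKY38*, a negative regulator of basal defence, was low in the other genotypes, with 0.54 and 0.614 CPM in Col-0 and 0.499 and 0.336 in MC-Line3, and reached 1.42 and 1.74 in MA-Line1 (1.44 ± 0.35 against Col-0, adjusted p = 0.00792, and 1.91 ± 0.36 against MC-Line3, edgeR). The call against Col-0 was lost without MA-Line1 replicate 2 (adjusted p = 0.0729).

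The partner of *WRKY38*, *WRKY62* (AT5G01900), was the least counted of the called members, and in MC-Line3 it was close to the limit of detection. Its counts were 17 and 26 in the Col-0 libraries, 3 and 1 in those of MC-Line3 and 17 and 10 in those of MA-Line1. Of summed and depth-scaled reads, Col-0 had 10.3 times those of MC-Line3, with a 95% exact binomial interval of 3.74 to 39.5 that covers counting error only (43 against 4 reads). The call in MC-Line3 (adjusted p = 0.00913, edgeR) was lost without MC-Line3 replicate 2 (adjusted p = 0.0939), and the difference between the lines was not called (adjusted p = 0.0576). *WRKY59*, with counts of 1 and 13 in the Col-0 libraries, 6 and 9 in those of MC-Line3 and 8 and 14 in those of MA-Line1, was the other member under 10 counts in a library and was not called.

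Further members of low level were higher in MA-Line1. *WRKY54*, which acts with *WRKY70* in salicylic acid signalling and senescence, had 1.92 and 2.94 CPM in the Col-0 libraries, 2.63 and 1.73 in those of MC-Line3 and 4.66 and 5.03 in those of MA-Line1, with Col-0 and MC-Line3 overlapping (0.99 ± 0.25 against Col-0 and 1.15 ± 0.25 against MC-Line3 on the log2 scale). *WRKY54* and *WRKY55* are neighbours on chromosome 2, at 17000419 to 17002528 and 16997078 to 16999499. *WRKY55* had 0.67 and 0.63 CPM in the Col-0 libraries, 0.222 and 0.442 in those of MC-Line3 and 1.02 and 1.3 in those of MA-Line1, and was called only between the lines (1.79 ± 0.42, adjusted p = 0.0118, edgeR). *WRKY31*, of subgroup IIb, had 2.92 and 3.13 CPM in the Col-0 libraries, 2.65 and 1.93 in those of MC-Line3 and 5.57 and 3.81 in those of MA-Line1 (0.63 ± 0.23 and, between the lines, 1.04 ± 0.23). The calls of these 3 genes between the lines were each lost without 1 MC-Line3 and 1 MA-Line1 library: MC-Line3 replicate 2 for *WRKY54* and *WRKY31* and replicate 1 for *WRKY55*, and MA-Line1 replicate 2 for *WRKY54* and *WRKY55* and replicate 1 for *WRKY31*. Against Col-0, the call of *WRKY54* was lost without MA-Line1 replicate 2 and that of *WRKY31* without Col-0 replicate 1, MA-Line1 replicate 1 or either MC-Line3 replicate. *WRKY71*, known from shoot branching, was the one development-linked member of 5 that was called, with 0.335 and 0.953 CPM in the Col-0 libraries, 0.555 and 0.353 in those of MC-Line3 and 1.29 and 1.48 in those of MA-Line1 (1.60 ± 0.47 between the lines, adjusted p = 0.0364, edgeR), and this call was lost without any single library of either line. That share of 20% equals the 20% of all genes called between the lines.

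Among the subgroups, group III had the largest share of members called between the lines (66.7%, against 20% of all genes tested). Of its 9 members, 6 were higher and 0 lower in MA-Line1 than MC-Line3 (11.3% and 8.68% of all genes), with a median log2 fold change of 1.63. In MC-Line3 against Col-0, 5 were lower and 0 higher (16.7% and 14.5% of all genes), with a median of -0.96. In subgroup IIc, 7 of 15 members were higher between the lines and 0 lower, and in group I 3 of 12. Subgroup IIe went against this. With the main settings, none of its 7 members was called higher in any comparison, 4 were lower in MA-Line1 (19.1% of all genes) and 2 in MC-Line3 (16.7%). It held *WRKY65*, the only member that was lower in MA-Line1 than MC-Line3. Of these calls, that of *WRKY69* in MA-Line1 (adjusted p = 0.046, edgeR) was lost in 8 of 14 settings, and that of *WRKY65* in MC-Line3 in 3. Several alternatives called *WRKY22* higher between the lines (adjusted p = 0.0273 with library size alone, against 0.0594, edgeR). Some called *WRKY29* higher in MC-Line3 (adjusted p = 0.0239 with library size alone, against 0.0777, edgeR). Lower calls were gained too, such as *WRKY14* between the lines (adjusted p = 0.0361, edgeR's likelihood ratio test). Genes on the other strand overlap 30.6% of the exon bases of *WRKY69*. *WRKY65*, named here after its values were seen, had 29.2 and 31.9 CPM in the Col-0 libraries, 25 and 24.1 in those of MC-Line3 and 15.5 and 16.1 in those of MA-Line1, a graded fall without overlap (-0.95 ± 0.08 in MA-Line1 and -0.64 ± 0.08 between the lines). *WRKY11*, a negative regulator of basal resistance in subgroup IId, had 79.7 and 85 CPM in the Col-0 libraries, 61.1 and 63.7 in those of MC-Line3 and 72.8 and 73.6 in those of MA-Line1 and was lower in MC-Line3 (-0.40 ± 0.07).

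Of the 60 members, 35 were called in at least 1 comparison and 25 in none, and the largest log2 fold change among the latter was 0.96 in size. In both lines against Col-0, 14 were called, of which 6 were lower in both (*WRKY7*, *WRKY22*, *WRKY40*, *WRKY46*, *WRKY57* and *WRKY65*), 2 higher in both (*WRKY18* and *WRKY39*) and 6 opposite. Of those lower in both, only *WRKY22* and *WRKY40* kept both calls in the 14 settings other than the dispersion estimated without genotypes. *WRKY7* lost its call in MA-Line1 in 7 of them and in MC-Line3 in 6. *WRKY57* lost that in MA-Line1 in 3, and *WRKY65* that in MC-Line3 in 3. A lower level in MC-Line3 than in Col-0 was joined with a higher level in MA-Line1 than MC-Line3 in 12 members. A higher level in MA-Line1 than in each of the other genotypes was found in 12, with 6 members in both sets. The comparisons joined in each set share the libraries of 1 line, so they are not separate findings. The share of all genes with these joint patterns was not counted. Of the senescence-linked members, 7 of 8 were lower in MC-Line3 (16.7% of all genes) and 7 of 8 were higher in MA-Line1 than MC-Line3 (11.3%). In MA-Line1 against Col-0, 5 of them were higher and 2 lower (18% and 19.1% of all genes). This list shares members with the rapidly inducible, phosphate and salicylic acid lists.

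Genes that act with the family were described from lists that were chosen with earlier results of these data known. Of all genes tested, 18% were higher and 19.1% lower in MA-Line1, and 14.5% higher and 16.7% lower in MC-Line3. Between the lines, 11.3% of all genes were higher and 8.68% lower in MA-Line1. In the MAPK cascade upstream of WRKY factors, 5 of 10 genes were lower in MC-Line3 and 0 higher (median log2 fold change -0.39), and 7 were higher in MA-Line1 than MC-Line3 (0.44). The kinase gene *MKK9* had 98.5 and 110 CPM in the Col-0 libraries, 33.1 and 30.5 in those of MC-Line3 and 74.5 and 78.7 in those of MA-Line1 (-1.71 ± 0.08 in MC-Line3), and *MPK11* was higher by 1.21 ± 0.18 between the lines. In MA-Line1 against Col-0, 1 cascade gene was higher and 1 lower, with a median of -0.02, whereas library size alone gave 5 higher and 1 lower with a median of 0.15. Of 7 genes for VQ proteins, small partners that bind WRKY domains, 6 were lower in MC-Line3 (median -0.73) and 5 were higher in MA-Line1 than MC-Line3 (0.87), while in MA-Line1 against Col-0 3 were higher and 2 lower (-0.05), or 3 and 0 with library size alone (0.12). *SIB1*, *SIB2*, *VQ10* and *JAV1* passed a log2 fold change of 1 in at least 1 comparison, led by *VQ10* (1.73 ± 0.19 between the lines and -1.20 ± 0.19 in MC-Line3). *SIB1* (1.25 ± 0.12 between the lines) and *JAV1* (-1.18 ± 0.10 in MC-Line3) followed.

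Known target genes of WRKY factors moved in both directions. Of the 14 listed, 12 were tested. In MA-Line1, 6 were higher and 3 lower (18% and 19.1% of all genes). In MC-Line3, 1 was higher and 6 lower (14.5% and 16.7%), and between the lines 7 were higher and 2 lower (11.3% and 8.68%). *PAD3*, a camalexin synthesis gene activated by WRKY33, had 9.38 and 9.99 CPM in the Col-0 libraries, 10.4 and 8.45 in those of MC-Line3 and 49.5 and 50.6 in those of MA-Line1 (2.37 ± 0.10 against Col-0, adjusted p = 2.65e-07, edgeR), although *WRKY33* itself was not called in MA-Line1. In MC-Line3, where *WRKY33* fell, *PAD3* was not called (-0.04 ± 0.11). The defence marker genes *FRK1* (1.80 ± 0.09), *NHL10* (1.30 ± 0.12) and *PR1* (1.72 ± 0.17) were likewise higher in MA-Line1 than in Col-0, and *JAZ8*, a repressor of jasmonate signalling, was lower in both lines (-2.63 ± 0.22 for MC-Line3 and -0.96 ± 0.19 for MA-Line1).

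The phosphate targets *PHT1;1* and *PHO1* were both lower in MA-Line1. *PHT1;1* had 87 and 109 CPM in the Col-0 libraries, 44.2 and 37.6 in those of MC-Line3 and 30.7 and 33 in those of MA-Line1, and was lower in both lines (-1.26 ± 0.11 and -1.62 ± 0.11), in MA-Line1 together with a higher *WRKY45*. *PHO1* had 59.8 and 64.9 CPM in the Col-0 libraries, 54.8 and 52.7 in those of MC-Line3 and 28.9 and 29.2 in those of MA-Line1 (-1.10 ± 0.08 in MA-Line1). Both are expressed mainly in roots, and all 4 root markers were lower in MA-Line1 (median log2 fold change -1.52), with a summed level of 2763 to 2979 CPM in Col-0, 2338 to 2778 CPM for MC-Line3 and 1294 to 1377 CPM for MA-Line1. Nearly all of that sum was *PYK10*, with means of 2834, 2532 and 1327 CPM in Col-0, MC-Line3 and MA-Line1. In MC-Line3, 2 of the 4 root markers were called lower and 0 higher. Shoot markers were also lower, at 44042 to 45526, 37120 to 38863 and 32836 to 35848 CPM in sum. The part of these organ markers in the WRKY and target values was not tested.

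Rapid touch, wound and cold genes moved in the same direction as the stress-inducible members in MC-Line3. Of 10 such genes, 8 were lower in each line and 0 higher (median log2 fold change -2.19 in MC-Line3 and -1.12 in MA-Line1), and 6 were higher and 1 lower in MA-Line1 than MC-Line3. The summed level of the 10 genes was 1365 to 1390 CPM in Col-0, 731 to 810 CPM for MC-Line3 and 1008 to 1023 CPM for MA-Line1. The zinc finger genes *ZAT10* (-2.77 ± 0.08 in MC-Line3 and -1.32 ± 0.08 in MA-Line1) and *ZAT12* (-2.30 ± 0.11 and -0.34 ± 0.10) and the ethylene response factor genes *ERF5* (-2.50 ± 0.10 and -1.28 ± 0.10) and *ERF6* (-2.08 ± 0.08 and -0.96 ± 0.08) were lower in both lines, as was the calmodulin-like gene *TCH2* (-1.43 ± 0.11 and -0.61 ± 0.10). Of the cold-response genes, *CBF1* (-2.32 ± 0.49 and -2.36 ± 0.49) and *CBF2* (-2.59 ± 0.11 and -2.80 ± 0.11) were lower in both, and *CBF3* in MA-Line1 (-3.33 ± 0.60). The part of this rapid response in the WRKY values was not tested.

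**Figure D4:**
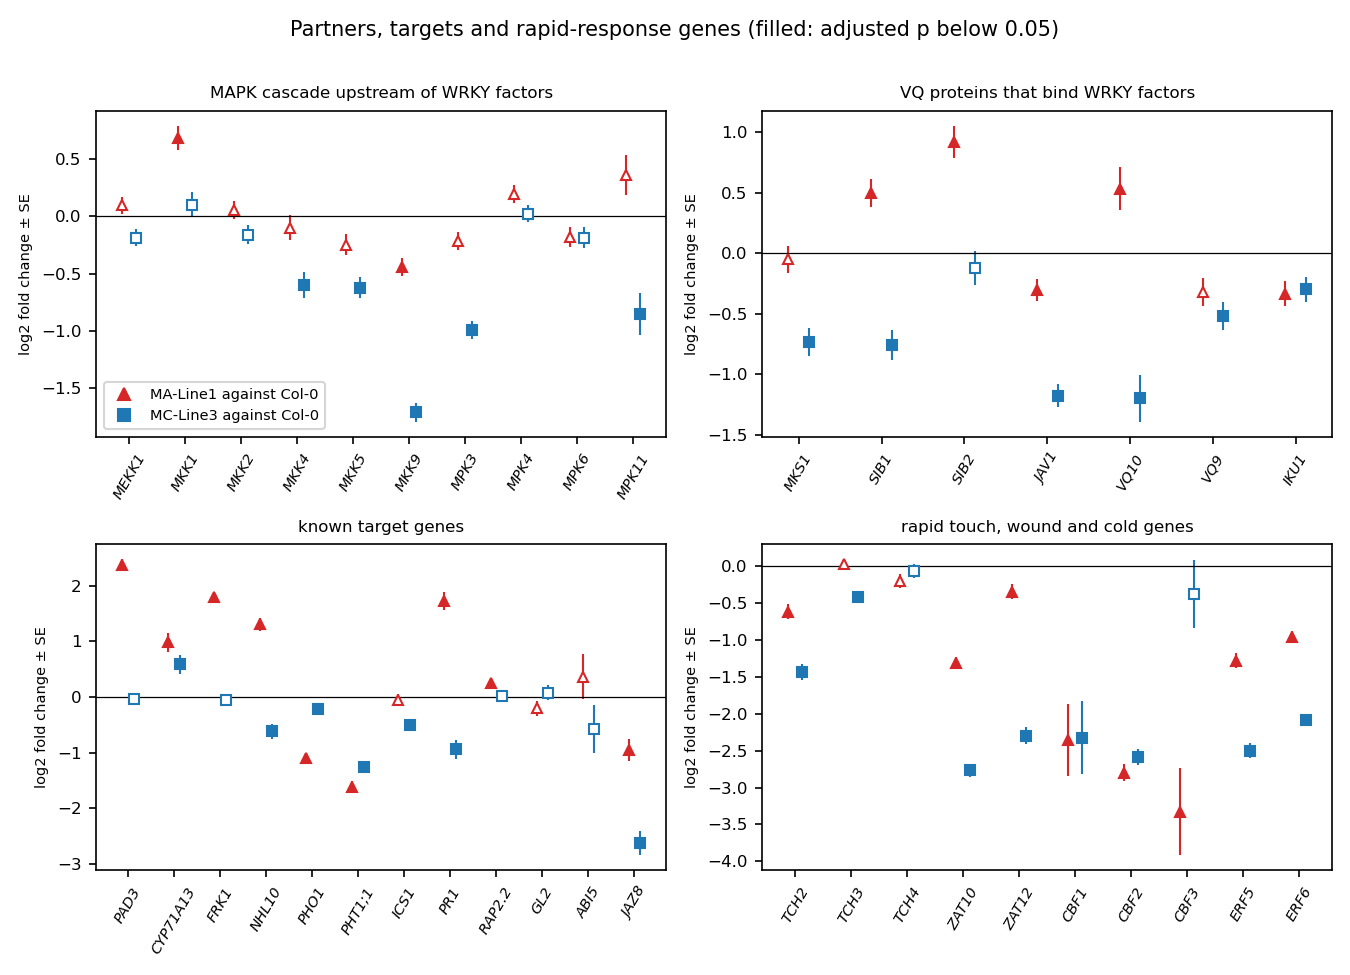
Log2 fold change with its standard error of the tested genes of 4 lists in MA-Line1 (red triangles) and MC-Line3 (blue squares) against Col-0, filled where the adjusted p is below 0.05. Of the known targets, *PAD3* (2.37) is highest in MA-Line1, and of the rapid genes 8 of 10 are filled and lower in each line. Of all genes tested, 19.1% were lower in MA-Line1 and 16.7% in MC-Line3.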

How the data were processed

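RNA of whole seedlings of Col-0, MC-Line3 and MA-Line1 was sequenced in 2 libraries per genotype. Per the study's methods, the authors filtered reads with the FASTX toolkit, trimmed them with Trimmomatic, aligned them with TopHat2 and counted them per gene with HTSeq, and the submitters' processing notes name the TAIR10 build. The deposited table holds raw counts in whole numbers, without normalization. Whether counting used strand, and its overlap mode, are not given in the sources used here. The count columns of the MC construct carry another line number than the labels and were assigned by construct and replicate number. The number of other per-sample columns was 0.

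The counts of the 6 libraries entered 1 model with group means (edgeR 4.0.16, R 4.3.3), scaled by TMM, and edgeR's default filter on expression left 21206 of 28775 genes. Comparisons used the quasi-likelihood test (two-sided) with Benjamini-Hochberg adjustment over all genes tested at 0.05. The procedure was tested on simulated data. Standard errors were derived from the F statistic, as |log2 fold change| over its square root. P-values measure the spread between these libraries. RPKM uses exon lengths of the TAIR10.1 RefSeq annotation, which held all 60 members and 28009 of the genes, and gene positions and sequences are from that assembly.

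Members called with a log2 fold change of at least 1 in size, and the phosphate- and low oxygen-linked members, are given per library, with up to 3 other called members of the highest level and the list genes past the same fold. Names outside this rule were chosen after their values were seen. Members, subgroups, roles and lists were chosen with earlier results of these data known. Alternatives were other scaling (library size alone, DESeq2 1.42.0 size factors), filters (none, or at least 10 counts in every library), tests (DESeq2's Wald test, edgeR's likelihood ratio test, only the 2 groups compared, dispersion estimated without genotypes), a replicate block, and leaving out each library.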

Additional observations from a re-analysis of the deposited data

Results flagged for a closer look

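A set of 6 members differed between the lines in direction against Col-0, with the difference itself tested as MA-Line1 against MC-Line3 in edgeR (quasi-likelihood, adjusted by Benjamini-Hochberg). The log2 differences were 0.87 for *WRKY6* (adjusted p = 0.000214), 1.70 for *WRKY8* (adjusted p = 0.000469), 0.57 for *WRKY15* (adjusted p = 0.000355), 1.35 for *WRKY45* (adjusted p = 5.16e-06), 1.63 for *WRKY70* (adjusted p = 6.11e-06) and 2.30 for *WRKY75* (adjusted p = 2.7e-06). Both libraries of MA-Line1 were above both of MC-Line3 for each gene. The same held for 33 of the 60 members, and in 11 members both MA-Line1 libraries were below both of MC-Line3. This separation therefore does not set the 6 genes apart, and its share among all genes was not counted. With 2 libraries per group, single libraries could not be examined as outliers.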

How the results depend on the processing

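No result reversed its direction past the threshold under any alternative. Apart from the dispersion estimated without the genotypes (edgeR's exact test), which called 0 members in either direction in all 3 comparisons, 10 of 24 member calls for MA-Line1, 12 of 22 for MC-Line3 and 15 of 22 between the lines were kept in all 14 other settings. Library size alone gave 5 members lower for MA-Line1, with 5 higher and 11 lower for MC-Line3. Members lower in MA-Line1 than in MC-Line3 numbered 4 without a filter and 4 with the likelihood ratio test, and 6 with only the 2 groups compared. Leaving out a library gave 8 to 16 members higher and 4 to 10 lower for MA-Line1, 2 to 4 higher and 12 to 21 lower for MC-Line3, and 15 to 24 higher and 1 to 4 lower between the lines. Counts moved by over 1.5 times without MA-Line1 replicate 1 (8 higher and 4 lower in MA-Line1), without MA-Line1 replicate 2 (9 and 4), without MC-Line3 replicate 1 (12 lower in MC-Line3) and without either Col-0 replicate (4 lower between the lines). Same-numbered libraries did not deviate together (correlations of 0.0225, -0.0628 and -0.0609 over 21206 genes), so the numbers do not pair them, and a replicate block gave 15 higher and 9 lower for MA-Line1, 4 and 19 for MC-Line3, and 20 and 1 between the lines. Members near 1 CPM or below, such as *WRKY62* and *WRKY59*, are limited by depth.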

Other observations

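The annotation names 12 further WRKY genes, of which 6 were tested. *ABO3* (WRKY63, AT1G66600), known from abscisic acid responses and drought tolerance, had 25 and 37 counts in the Col-0 libraries, 47 and 24 in those of MC-Line3 and 386 and 306 in those of MA-Line1. Both MA-Line1 libraries stood far above the other 4, with a log2 fold change of 3.36 ± 0.31 SE against Col-0 (adjusted p = 1.9e-05, edgeR) and 3.09 ± 0.30 against MC-Line3 (adjusted p = 4.71e-05). This was more than the 2.74 of *WRKY51*, the largest rise among the 60 members. *TTR1* (WRKY16), which encodes an immune receptor fused to a WRKY domain, was lower in MC-Line3 (-0.28 ± 0.07) and higher in MA-Line1 than MC-Line3 (0.32 ± 0.07). *WRKY49* was not called, and its Col-0 libraries held 1003 and 442 counts, a wider gap than between the genotypes.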
